A study of Mus musculus with 4 samples.

Results

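Barx1, 4 of the Dlx genes, Gsc, Gbx2, Otx2 and En1 encode homeodomain transcription factors of the branchial arches, the stomach mesenchyme and the early head. These 9 genes were followed in RNA from the posterior part of mouse embryos, out of 18220 genes that could be named on the array. The genes were chosen by name with their log2 difference between the genotypes on these 4 arrays already known, so that difference is described here and supports no test. Every probe whose accession maps to one of the genes was taken, which gave 9 probes, 1 for each gene. The study compared Jmjd3-/- embryos with wild-type embryos at E9.5, all from intercrosses of Jmjd3+/- mice, with no other allele or agent named. Each genotype had 2 RNA samples with 1 array each, numbered 1 and 9 in Jmjd3-/- and 3 and 4 in wild-type, and pairs of values below follow that order. Jmjd3, now named Kdm6b, encodes a demethylase that removes the repressive mark of Polycomb from histone H3. The titles speak of an embryo in the singular, but the labels state no number of embryos or litters per sample, no sex and no deleted part of the gene.

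Homeodomain factors bind DNA and regulate the genes that give a region its identity. In the branchial arches, nested expression of Dlx genes sets upper against lower jaw identity: Dlx1 and Dlx2 are active along the whole arch, Dlx5 and Dlx6 only in its lower part, and Gsc acts downstream of them. Several of these genes have other sites in the trunk. Dlx2, Dlx5 and Dlx6 are active in the apical ectodermal ridge of the limb bud, En1 in the ventral limb ectoderm and in somites, Barx1 in the mesenchyme around the future stomach, and Gbx2 at the posterior end of the embryo as well as in the hindbrain. Otx2 marks the forebrain and midbrain and meets Gbx2 at the boundary of midbrain and hindbrain.

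The genes lie at 7 places in the genome, on chromosomes 1 (Gbx2 and En1), 2 (Dlx1 and Dlx2), 6 (Dlx5 and Dlx6), 12 (Gsc), 13 (Barx1) and 14 (Otx2). Dlx1 and Dlx2 are transcribed towards each other, from starts 17309 bases apart in GRCm38.p6. RefSeq promoters of that build were at hand for 7 of the 9 genes, in 10 windows, since Otx2 has several starts; Dlx5 and Dlx6 are the others. The 250 bases before the start are printed below for the 3 genes that were lower in Jmjd3-/- with signal above background on every array, Barx1, Dlx2 and Gsc, and for Gbx2, which was higher. Each CpG is in capitals, because CpG-rich promoters are where Polycomb marks are usually found; the strand is in parentheses.
Barx1 chr13:48662786-48663035 (+): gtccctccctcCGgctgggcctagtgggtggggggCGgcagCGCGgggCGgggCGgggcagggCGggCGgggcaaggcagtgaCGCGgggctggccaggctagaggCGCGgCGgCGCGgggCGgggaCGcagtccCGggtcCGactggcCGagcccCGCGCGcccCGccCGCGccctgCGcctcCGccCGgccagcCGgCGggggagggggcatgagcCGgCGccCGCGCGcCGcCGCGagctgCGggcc
Dlx2 chr2:71546755-71547004 (-): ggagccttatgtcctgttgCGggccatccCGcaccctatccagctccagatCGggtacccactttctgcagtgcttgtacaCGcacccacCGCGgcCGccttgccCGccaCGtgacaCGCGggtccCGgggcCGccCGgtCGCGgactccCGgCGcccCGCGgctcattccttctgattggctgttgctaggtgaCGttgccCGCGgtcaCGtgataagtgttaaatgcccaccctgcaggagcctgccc
Gsc chr12:104473237-104473486 (-): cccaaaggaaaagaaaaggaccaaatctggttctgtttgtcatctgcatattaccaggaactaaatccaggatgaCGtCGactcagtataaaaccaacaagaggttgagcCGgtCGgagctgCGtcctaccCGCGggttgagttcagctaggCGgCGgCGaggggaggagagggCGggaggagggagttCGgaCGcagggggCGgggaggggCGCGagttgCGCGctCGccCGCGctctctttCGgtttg
Gbx2 chr1:89931177-89931426 (-): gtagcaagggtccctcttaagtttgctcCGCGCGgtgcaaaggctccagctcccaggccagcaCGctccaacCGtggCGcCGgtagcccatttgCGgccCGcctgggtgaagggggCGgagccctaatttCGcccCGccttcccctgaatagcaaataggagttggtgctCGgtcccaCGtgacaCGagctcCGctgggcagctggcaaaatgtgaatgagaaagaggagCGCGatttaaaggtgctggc

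The Barx1 window holds 40 CpGs and is 85.6% G and C, which places it above 98.7% of the 32851 mouse promoters in CpG count. The Dlx2 window has 24 CpGs, the Gsc window 22 and the Gbx2 window 18, against a median of 6 over all promoters. A count of at least 20 is found in 4 of the 10 windows and in 17.9% of all promoters. Dlx1 has 22 and En1 19, whereas the 4 Otx2 windows have 6 to 14. Counts above the median of all promoters were found for genes that were lower, for Gbx2, which was higher, and for En1, which was not above background. A link between CpG count and direction was not tested. The homeodomain core TAATTA, which reads the same on both strands, occurs in 2 of the 10 windows, both of Otx2, and in 4.84% of all promoters. TATAAA, searched on both strands, occurs in 2 windows, of Gsc and Otx2, and in 12.4% of all promoters.

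Levels are given as normalised log2 signals, where 0 is the 75th percentile of the array's probes, and differences are log2 values, Jmjd3-/- less wild-type, followed by limma's moderated standard error (SE), n = 2 arrays per genotype. Signal depends on the probe, so levels of different genes are not comparable. A gene entered the fit when its probe was well above background, by the scanner software's mark, on both arrays of at least 1 genotype. That held for 13582 genes and for 6 of the 9: Barx1, Dlx1, Dlx2, Dlx5, Gsc and Gbx2. Dlx1 entered through the wild-type arrays alone. Of the other genes of the list, Dlx6, Otx2 and En1 were not well above background on any array.

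Kdm6b had 25.7% of the wild-type level in Jmjd3-/-, with a log2 difference of −1.96 (SE 0.12) and an adjusted p of 0.149 (limma); the sources used here do not say whether its probe lies in the deleted part. The labelled tissue had its markers: all 15 posterior genes, from Cdx2 and T to the Hox genes, were well above background on 4 of 4 arrays. Of 16 brain and eye genes on the array, 8 were not well above background on any array, Six3 and Six6 among them, and 5 were above it on all, of which Lhx2 also acts in the limb bud and Emx2 in the early kidney. Between 59.8% and 63.0% of probes were well above background on an array, no spot was saturated, and the number of arrays limits the precision. All arrays shared 1 slide, with Jmjd3-/- at the ends of the row and wild-type between, so place and genotype cannot be told apart. Jmjd3-/- replicate 1 stood apart from the rest: 806 and 706 genes were over 2-fold from wild-type 3 and 4 there, and 354 and 333 genes in replicate 9. Over all genes tested, 2.11% were over 2-fold lower and 0.913% over 2-fold higher in Jmjd3-/-.

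**Figure D1:**
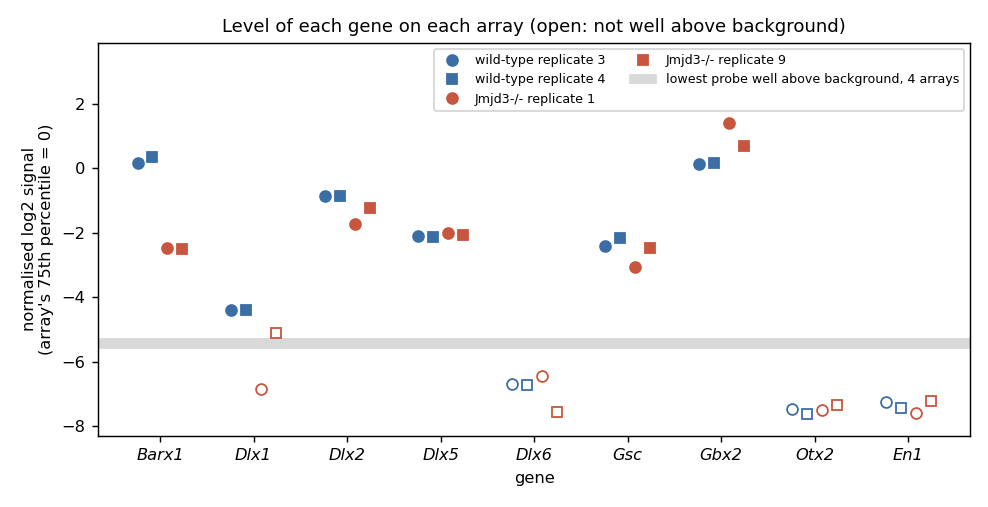
Normalised log2 signal of each of the 9 genes (y axis, 75th percentile of the array = 0) on the 4 arrays (1 point each; blue wild-type, red Jmjd3-/-); open points were not well above background, and the grey band spans, over the 4 arrays, the dimmest probe that was well above background. The Jmjd3-/- points of Barx1 lie at −2.49 and −2.50, far below the wild-type points at 0.16 and 0.35, while Dlx6, Otx2 and En1 lie below the band on every array; heights of different genes are not comparable.

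Barx1 keeps Wnt signalling low in the stomach mesenchyme and patterns the arch mesenchyme that forms the molars. Its level was 0.16 and 0.35 in wild-type, and −2.49 and −2.50 in Jmjd3-/-. The genotypes were far apart, and the Jmjd3-/- arrays were nearly equal. In processed signal the wild-type spots read 671 and 798 units and the Jmjd3-/- spots 108 and 102, still well above background. The mutant level was thus 14.9% of wild-type, a difference of −2.75 (SE 0.097). In bulk RNA, fewer cells of a type and less RNA per cell cannot be told apart. Barx1 ranked 20th from the lowest difference over all tested genes and 3rd among those above background on all arrays. The error that the scanner software gave for these spots was at most 10.6% of the signal.

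In the fit over all genes, 1 of the 6 genes, Barx1, lay past an adjusted p of 0.05 (limma, Benjamini-Hochberg), as 0.0368% of all tested genes did (0.0147% lower and 0.0221% higher in Jmjd3-/-); nothing is read from this for Barx1 or for the count, since the genes were chosen with this contrast known. The difference of Barx1 stayed between −2.84 and −2.16 over all settings tried, the smallest with normexp background correction.

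Among the Dlx genes, Dlx1 and Dlx2 were lower in Jmjd3-/-, while the difference of Dlx5 was about the size of its error. Dlx2 had levels of −0.87 and −0.86 in wild-type, against −1.71 and −1.24 in Jmjd3-/-. Both Jmjd3-/- arrays lay below both wild-type arrays, and the wild-type arrays were almost equal. The difference was −0.61 (SE 0.19), or 65.4% of the wild-type level. Dlx1, its neighbour on chromosome 2, was dim: its spot read 28.2 and 29.5 units in wild-type, just above background, and 5.21 and 16.6 in Jmjd3-/-, not well above background. Only an approximate bound can be given, by which the mean of Dlx1 was 1.92-fold lower or more in Jmjd3-/-. For this bound, the wild-type mean was set against a floor on each Jmjd3-/- array, either the dimmest probe still marked well above background there or Dlx1 itself, whichever was brighter. The measured means behind it were −4.41 in wild-type and −5.99 in Jmjd3-/-. In log2 the bound was −0.94, −0.71 from Jmjd3-/- replicate 9 alone, and −0.32 with normexp background correction. It is no strict limit, since the floor lay below the spot of 16.6 units, which was also not marked well above background.

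Dlx5, which specifies the lower jaw together with Dlx6, had levels of −2.11 and −2.14 in wild-type and −2.02 and −2.07 in Jmjd3-/-. The difference was 0.079 (SE 0.074), so the genotypes differed by about as much as the error of the difference, although the arrays did not overlap. The spots read 138 to 149 units on the 4 arrays. Dlx6 read 6.93 and 3.03 units in Jmjd3-/- and 5.74 and 5.91 in wild-type. No array of Dlx6 was well above background, so no difference is given. The antisense RNA Dlx6os1, which starts in the same region and can act on Dlx5 and Dlx6, had 2 probes and was not well above background on any array.

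Gsc, a gene of the embryonic organizer that is later active in the arches and limb buds, had levels of −2.40 and −2.18 in wild-type and −3.08 and −2.48 in Jmjd3-/-. The lowest wild-type and the highest Jmjd3-/- array were close, so the absence of overlap rests on a small gap. The difference was −0.49 (SE 0.24), about 2 times its error, and the wild-type arrays themselves were 0.22 apart.

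Gbx2 went the other way. Its level was 0.14 and 0.17 in wild-type, and 1.42 and 0.70 in Jmjd3-/-. Both Jmjd3-/- arrays lay above both wild-type arrays, and they were 0.72 apart from each other. The difference was 0.91 (SE 0.27), a 1.87-fold higher mean. Otx2, which opposes Gbx2 at the midbrain boundary, was not detectable here: its probe was spotted 10 times, the spots read between 2.59 and 5.19 units over the 4 arrays, and 0 of them were well above background.

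Among the 6 tested genes, both Jmjd3-/- arrays lay below both wild-type arrays for 4 genes and above for 2, where 23.7% and 23.0% of all tested genes did so. The 4 include Dlx1, which entered the fit through its wild-type arrays alone, so the filter itself favoured this direction for Dlx1. The Jmjd3-/- arrays differed in how far they went. Replicate 9 showed 0.29 times the difference of replicate 1 from the wild-type mean for Dlx1, which was too dim on both of them, 0.44 for Dlx2, 0.24 for Gsc and 0.43 for Gbx2. Set against the wild-type mean, replicates 1 and 9 gave −0.85 and −0.38 for Dlx2, −0.79 and −0.19 for Gsc, and 1.27 and 0.55 for Gbx2, so the sizes above depend on both arrays. For Barx1 the ratio was 1.01, with −2.74 and −2.76. Of the 411 tested genes more than 2-fold apart between genotypes, replicate 1 was farther from wild-type than replicate 9 in 77.6%. In 7 of them, Barx1 itself included, the Jmjd3-/- arrays were at least as close to each other as for Barx1. This count was made after the values were seen.

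**Figure D2:**
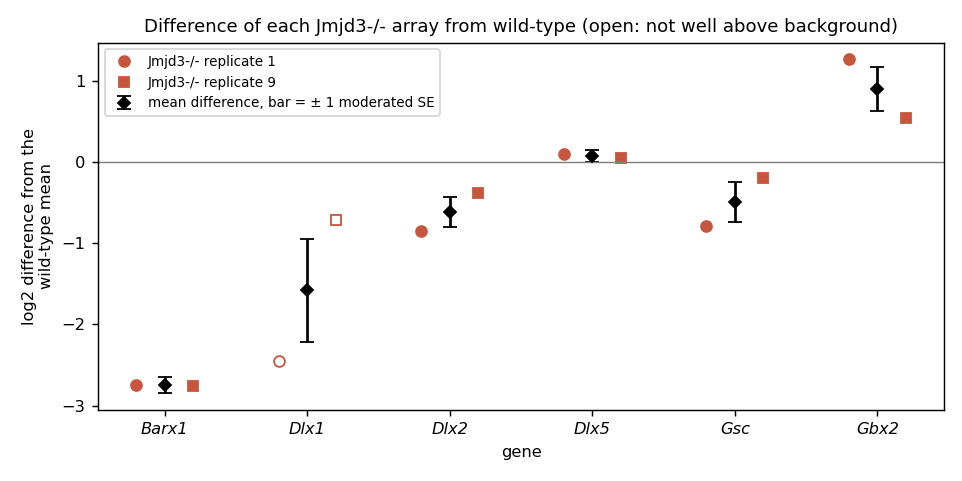
Log2 difference from the wild-type mean (y axis) for the 6 tested genes: circles are Jmjd3-/- replicate 1, squares replicate 9, and diamonds their mean with a bar of 1 moderated SE either side; open points are not well above background, so the Dlx1 diamond is a fitted value and no bound. The Barx1 points coincide near −2.75, whereas replicate 1 lies farther from 0 than replicate 9 for Dlx1, Dlx2, Gsc and Gbx2.

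For En1 the values depended on how repeated spots of a dim probe were averaged. The gene patterns the midbrain and hindbrain border and the ventral side of the limb. Its probe has 10 spots per array, with medians of 3.11 and 3.53 units in Jmjd3-/- and 3.22 and 3.43 in wild-type. One spot of wild-type replicate 3 read 20.2 units; it was the only En1 spot on any array marked well above background, and the software marked it as an outlier. In the authors' deposited table, En1 is given as 1.28 and −1.28 in wild-type and as −1.43 and −1.06 in Jmjd3-/-, a mean difference of −1.24. Those values were met within 0.00063 when only spots well above background were averaged on an array that had any, which for wild-type replicate 3 leaves the single bright spot. With the mean of all spots the En1 values were −0.24 and 0.13 in Jmjd3-/-, and 0.091 and −0.091 in wild-type, relative to the wild-type mean. The genotypes then overlapped.

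The paralog En2 gives the contrast, as its probe also has 10 spots and all were well above background on every array. The spots read 82.4 to 91.9 units in wild-type replicate 3 and 89.3 to 108 in replicate 4, and 58.6 to 76.1 in Jmjd3-/- replicate 1 and 68.6 to 81.6 in replicate 9. Before scaling between arrays, no Jmjd3-/- spot reached the lowest wild-type spot; after scaling, the brightest spot of Jmjd3-/- replicate 9 lay above the dimmest of wild-type replicate 3. Spots of an array varied by an SD of 0.051 to 0.12 in log2, against a difference of −0.33 (SE 0.12) between genotypes, with an adjusted p that missed the threshold. Repeated spots measure the array and not the embryos, so they are no replicates.

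**Figure D3:**
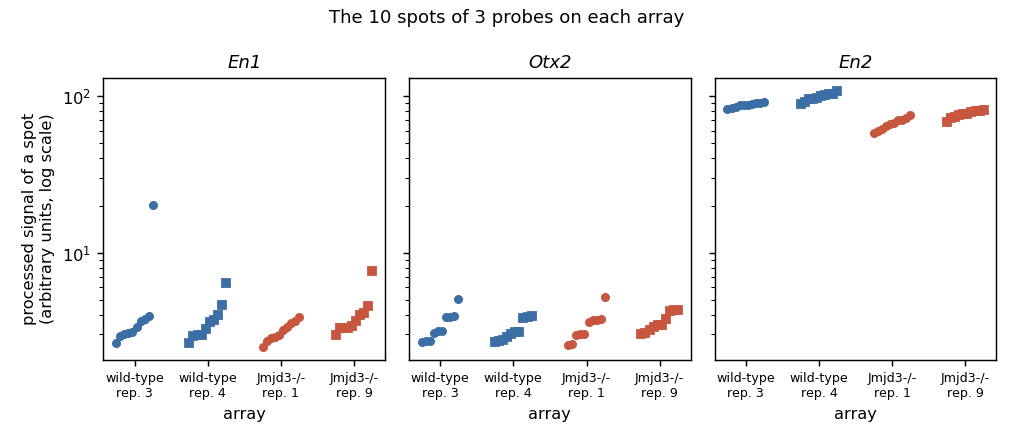
Processed signal of each of the 10 spots (y axis, arbitrary units, log scale) of the En1, Otx2 and En2 probes on the 4 arrays (x axis; blue wild-type, red Jmjd3-/-). En1 and Otx2 spots cluster near the low end, with 1 En1 spot of wild-type replicate 3 at 20.2 units, while all En2 spots lie between 58.6 and 108 units and, before scaling between arrays, the Jmjd3-/- spots lie below the wild-type spots.

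Of the 7 other genes of these families, 6 were on the array and 5 were tested; 4 had a negative and 1 a positive difference, and 0 passed (limma; 1 at an unadjusted p under 0.05; smallest adjusted p 0.419). Their median was −0.22, against −0.012 over all genes. Of all 13582 genes tested, 1505 were at an unadjusted p under 0.05 (limma), the count to set beside those of this and the later lists. Barx2, the closest relative of Barx1, differed by −1.10 (SE 0.35) at the probe above background, with the wild-type arrays 0.71 apart, and its other 2 probes were not above background. Dlx3 and Dlx4, neighbours on one chromosome, differed by −0.21 (SE 0.089) and −0.22 (SE 0.15). Gbx1 differed by 0.45 (SE 0.18), the same sign as Gbx2. Otx1 was not well above background on any array, like Otx2.

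Other regulators of the arches were divided. Of 26 genes, 24 were tested, 12 with a negative and 12 with a positive difference; 0 passed (limma; 10 at an unadjusted p under 0.05; smallest adjusted p 0.233). The median was 0.0014, which changed sign with 3 other scalings or backgrounds and without wild-type replicate 4 or Jmjd3-/- replicate 9. Hand2 and Hand1, which act in the lower arch and in the lateral mesoderm, differed by −0.18 (SE 0.14) and 0.016 (SE 0.31). Ednra, the endothelin receptor that switches on Dlx5, Dlx6 and Hand2 in the lower arch, differed by −0.18 (SE 0.11), and Msx1, a homeobox gene of arch and limb mesenchyme, by 0.072 (SE 0.086). The large shift of Barx1 was thus not seen in these genes: their differences ran from −1.23 to 1.07.

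In the mesenchyme of the foregut and stomach, 16 of 17 genes were tested, and 13 had a negative and 3 a positive difference. The median was −0.28, and 0 passed (limma; 6 at an unadjusted p under 0.05; smallest adjusted p 0.152). Foxf1, a target of hedgehog signals in gut mesenchyme, differed by −0.28 (SE 0.13), and Isl1, a LIM homeobox gene active in stomach and hindlimb mesenchyme, by −0.18 (SE 0.10). Sfrp1 and Sfrp2 encode secreted Wnt antagonists through which Barx1 acts in the stomach. Sfrp1 had levels of 1.30 and 2.41 in wild-type and 0.35 and 1.85 in Jmjd3-/-, so the genotypes overlapped. Its difference was −0.76 (SE 0.68), and that of Sfrp2 was −0.19 (SE 0.17).

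Limb ectoderm and apical ridge genes, which mark another site of Dlx genes, were tested in 18 of 20 cases, 10 with a negative and 8 with a positive difference; 0 passed (limma; 5 at an unadjusted p under 0.05; smallest adjusted p 0.329). Their median was −0.16, and without Jmjd3-/- replicate 1 it was 0.16. The ridge and tail signal Fgf8 and its regulator Sp8 differed by 0.87 (SE 0.20) and 0.62 (SE 0.18), whereas Sp6 and Wnt7a, genes of the limb ectoderm, differed by −0.58 (SE 0.21) and −0.51 (SE 0.54). Fgf8 and Sp8 are also active at the tail bud, a site of Gbx2.

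Markers of other tissues had differences of which none passed the test (0; smallest adjusted p 0.195, limma). Jmjd3-/- replicate 1 lay farther from the wild-type mean than replicate 9 in 9 of 10 crest, 6 of 7 heart, 11 of 15 posterior and 5 of 5 brain and eye genes, as it did for 5 of the 6 homeobox genes. It also did so in 77.6% of the 411 tested genes more than 2-fold apart. The share over all tested genes was not counted, so nothing particular to these lists is read from the counts. All 10 tested genes of the 12 neural crest markers had a negative difference, with a median of −0.47, −0.67 in Jmjd3-/- replicate 1 and −0.24 in replicate 9; the summed level of the list, in multiples of the array's 75th percentile, was 17.1 to 17.4 in wild-type and 10.8 to 14.6 in Jmjd3-/-. Sox10 differed by −1.24 (SE 0.80), Foxd3 by −0.50 (SE 0.28), Tfap2a by −0.12 (SE 0.14) and Tfap2b by −1.36 (SE 0.50). Of 8 heart markers 7 were tested and 6 had a negative difference, with a median of −1.05, −1.56 in replicate 1 and −0.55 in replicate 9, and a summed level of 8.02 to 12.2 in wild-type and 4.11 to 6.11 in Jmjd3-/-. Nkx2-5, whose signal in Jmjd3-/- replicate 1 was not well above background, differed by −1.86 (SE 0.29), Myl7 by −1.62 (SE 0.40), Tnnt2 by −1.41 (SE 0.33) and Actc1 by −0.57 (SE 0.22). Since Nkx2-5 entered the fit through its wild-type arrays alone, its −1.86 is a fitted value and not a measured size. The other tested heart markers, named after their values were seen, were Tnni1 at −1.05 (SE 0.46), Myh6 at −0.013 (SE 0.59) and Myl2 at 0.29 (SE 0.10), the last without overlap. Myh6 was well above background on only 1 of the wild-type arrays. The wild-type arrays differed too: the median of wild-type 4 less wild-type 3 was −0.71 in this list.

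The posterior list had 11 positive and 4 negative differences among 15 genes, with a median of 0.71, 0.89 in replicate 1 and 0.54 in replicate 9, and a summed level of 43.4 to 47.4 in wild-type and 65.9 to 94.9 in Jmjd3-/-. Cdx2 differed by 1.45 (SE 0.23), T by 1.09 (SE 0.41), Wnt3a by 1.42 (SE 0.25) and Hoxc10 by 0.11 (SE 0.16). Not all of the list had that sign. The differences of Hoxd10, Hoxd11 and Hoxa11, picked out once the values were known, were −0.65 (SE 0.073), −0.72 (SE 0.12) and −0.89 (SE 0.22), with no overlap between genotypes. The summed level of the brain and eye list was 4.17 to 4.71 in wild-type and 2.23 to 2.81 in Jmjd3-/-, but without Lhx2 it was 1.62 to 1.66 and 1.87 to 1.99. That remainder includes Lhx5, with levels of −0.44 and −1.14 in Jmjd3-/- and −2.33 and −2.11 in wild-type. The direction of the sum thus depended on single genes. In that list 5 of 18 genes were tested, 3 with a negative difference; the median of −0.12 turned positive without a filter on dim probes or without Jmjd3-/- replicate 1. Lhx2 differed by −2.57 (SE 0.74), Emx2 by −0.93 (SE 0.73), Emx1 by −0.12 (SE 0.084) and Barhl1 by 0.036 (SE 0.081), and Lhx5, a gene of brain and spinal cord named after its value was seen, by 1.43 (SE 0.27). In these 4 lists 0 genes passed (limma). At an unadjusted p under 0.05 (limma) were 3 crest, 3 heart, 11 posterior and 2 brain and eye genes, against 1505 of all 13582. The part of such tissue shares in the values of the 9 genes was not tested.

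**Figure D4:**
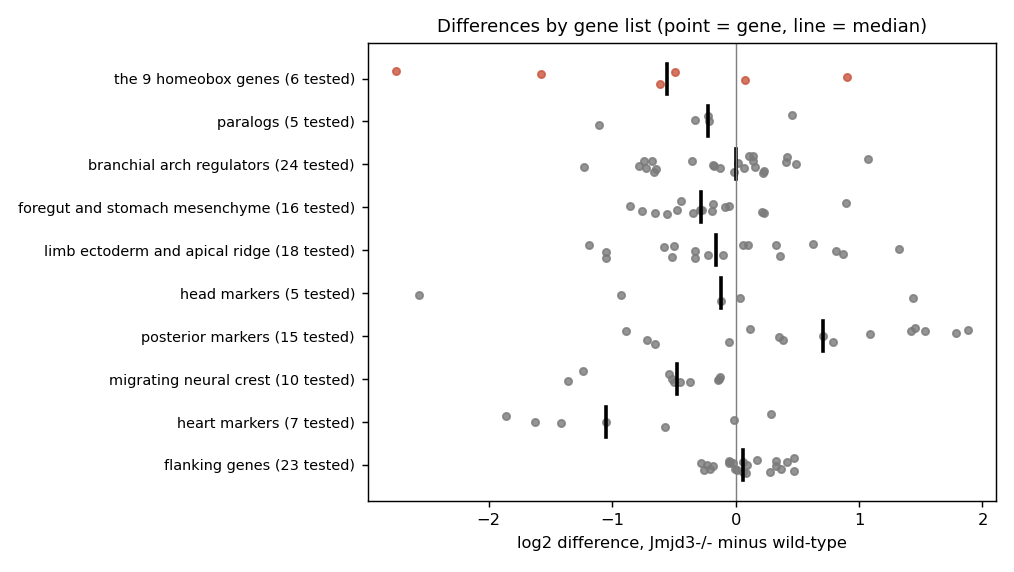
Log2 difference between genotypes (x axis, Jmjd3-/- minus wild-type) of each tested gene, 1 point per gene, in the 9 homeobox genes (red) and the other lists (grey), with the median of each as a black line (head markers are the brain and eye list). Barx1 at −2.75 lies outside the range of the arch regulators, −1.23 to 1.07, and the tested genes that flank the loci of the 9 genes lie between −0.28 and 0.47.

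Genes beside the 9 on the chromosome had small differences in both directions. The nearest 2 protein-coding genes with a name on each side of the 7 loci gave 28 genes, of which 23 were tested; 13 had a positive and 10 a negative difference, with a median of 0.056 and a range from −0.28 to 0.47. None of the 23 passed (0; limma; 2 at an unadjusted p under 0.05; adjusted p from 0.329 to 0.988). Beside Barx1, Ptpdc1 differed by 0.36 (SE 0.19) and Zfp169 by 0.17 (SE 0.13) on one side, and Phf2 by −0.28 (SE 0.13) and Fam120a by −0.052 (SE 0.071) on the other. Phf2 encodes a demethylase of another histone mark. Beside Dlx1 and Dlx2, Metap1d differed by 0.010 (SE 0.13), Hat1 by −0.0048 (SE 0.073), Itga6 by −0.25 (SE 0.12) and Pdk1 by 0.33 (SE 0.092). Beside Dlx5 and Dlx6, Sem1 differed by −0.045 (SE 0.078), Slc25a13 by 0.089 (SE 0.071) and Sdhaf3 by −0.056 (SE 0.092), and Tac1 was not well above background on any array. Beside Gbx2, Agap1 differed by −0.023 (SE 0.12) and Sh3bp4 by 0.059 (SE 0.086), and Asb18 and Iqca were not well above background. Beside Gsc, Serpina3m differed by 0.47 (SE 0.23), Dicer1 by 0.33 (SE 0.54) and Clmn by 0.28 (SE 0.11), and Serpina3n was not above background; Serpina3 genes are near-identical copies, so their probes may share signal. Near En1, Marco differed by 0.42 (SE 0.21), Insig2 by 0.056 (SE 0.081) and Ccdc93 by −0.23 (SE 0.11), with C1ql2 above background on 1 array of each genotype. Near Otx2, Ap5m1 differed by 0.47 (SE 0.087), Exoc5 by 0.087 (SE 0.092), Peli2 by −0.19 (SE 0.072) and Tmem260 by −0.21 (SE 0.10).

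The profiles most like each gene were found by Euclidean distance between centred log2 levels over the 4 arrays, a description over few points. Nearest to Barx1 were Evi2, at a distance of 0.43, and St18, at 0.59. Both were dim and not well above background in Jmjd3-/-, and by the same approximate bound 1.37-fold and 1.86-fold lower or more. Nearest to Dlx1 were Ckb (0.17) and Rhbdl3 (0.18), and to Dlx2 Pipox (0.048) and Gdpd5 (0.062). Gsc was closest to Hoxa4 (0.041) and Hbq1b (0.046), Gbx2 to Rora (0.093) and Uap1l1 (0.11), and Dlx5 to Tbpl1 (0.0070) and Max (0.0071). Distances shrink for flat profiles, so they cannot be compared between the genes. The Dlx5 profile itself lay 0.090 from a flat one, that of Gsc 0.67 and that of Barx1 2.75.

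**Figure D5:**
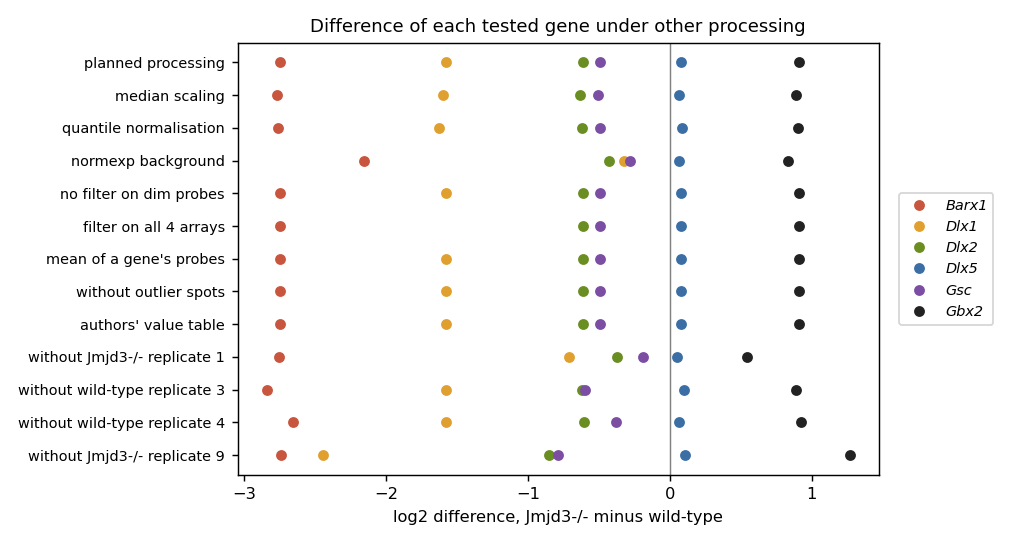
Log2 difference (x axis, Jmjd3-/- minus wild-type) of the 6 tested genes, 1 colour per gene, with the planned processing and 12 alternatives (y axis). Barx1 stays between −2.84 and −2.16, and no gene changes sign, which most of the alternatives could not have brought about. Dlx1 is missing where a signal on all arrays was required.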

How the data were processed

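RNA from the posterior part of E9.5 mouse embryos, 2 samples per genotype, was hybridised to 1-colour Agilent arrays. The titles speak of an embryo in the singular, but the labels do not say that samples came from separate embryos or litters, so errors and p-values measure only how these samples vary, which may be technical. The deposited scanner files hold the processed intensity of each spot, corrected for background and spatial trends by Agilent Feature Extraction 10.7.3.1 (software and version per the submitters' processing notes, corrections per the file headers), and not normalised between arrays. All 4 arrays lay on 1 slide. The authors' deposited table of log2 values matched the log2 processed signal less each array's 75th percentile and less the wild-type mean, with 99.9% of 41174 probes within 0.01 and r of 0.995 to 0.997; its column medians were −0.02, 0.05, 0.02 and −0.02 in Jmjd3-/- 1 and 9 and wild-type 3 and 4. Its scale, centring and direction were found in this way and are not stated.

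Control spots (1639 of 45018) were left out, log2 signals of a probe's spots were averaged, and the 75th percentile, 578 to 627 units, was subtracted. A probe counted as well above background when at least 0.5 of its spots were. Names came from RefSeq accessions of GRCm38.p6 (26690 probes by accession, 23 by synonym, 14461 unnamed); the array headers name another build. The brightest probe stood for a gene. The difference between genotypes was fitted in R 4.3.3 with limma 3.58.1 (lmFit, eBayes, no covariate), with Benjamini-Hochberg adjustment over 13582 genes and a threshold of 0.05. The fit was tested on simulated data, where 77 of the shifted genes were called at a log2 shift of 1. Of the same genes, 164 were called at a shift of 2 and 177 at 3. Not all of the shifted genes were called even at 3, so genes that did not pass may still differ. The simulation drew independent noise for each array, with the residual SDs shuffled among genes. Its counts therefore do not give the power on these arrays. There, 5 genes passed in all, and Kdm6b, with a difference of −1.96, had an adjusted p of 0.149 (limma). The 9 genes, the lists, the tests and the alternatives were chosen with earlier results of these data known. The alternatives were other scalings, background, filter, probe and spot rules, the deposited values, and each array left out. Named were Kdm6b, the 9 genes, their paralogs and antisense RNAs, the first 4 tested genes of each other list as written, the nearest genes by position and by profile, and any list gene past the threshold. Genes named only after their values were seen are marked so where they appear. Summed levels of marker lists were also taken without the gene of largest range, an alternative chosen after seeing the data. The files hold no mean spot signal, so normexp used the median signal with an offset of 50.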

Additional observations from a re-analysis of the deposited data

How the results depend on the processing

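All 6 tested genes kept the sign of their difference in every one of the 12 alternatives that could be fitted to them (11 for Dlx1, which a filter on all arrays removed). Most of these could not have changed it. Each of the 6 has 1 probe with 1 spot, so filter, probe and spot rules return nearly the same value. Since no genotypes overlapped, leaving out an array cannot turn a sign either. Only the other scalings and normexp could have done so. Barx1 ranged from −2.84 to −2.16, Dlx2 from −0.85 to −0.38, Gsc from −0.79 to −0.19, Gbx2 from 0.55 to 1.27 and Dlx5 from 0.053 to 0.10; the bound of Dlx1 in log2 ranged from −1.17 to −0.32, the last with normexp, and without replicate 1 or 9 the values are those of the other Jmjd3-/- array. The median of the tested genes, −0.55, ranged from −0.82 to −0.28. It includes the fitted value of Dlx1, which was not well above background in Jmjd3-/-. With signal required on all arrays, which leaves Dlx1 out, the median was −0.49. The number of genes past the threshold, 5 (3 higher, 2 lower), was unstable: 0 with quantile normalisation, with dim probes kept and with signal required on all arrays (1466, 1621 and 1415 genes at an unadjusted p under 0.05), 2 with normexp (1 higher, 1 lower) and 3 with probes averaged per gene (1 lower); 4 were lower with median scaling and 4 without outlier spots. Leaving out an array gave 0 (without wild-type replicate 3, 720 at an unadjusted p under 0.05) to 221 genes (without Jmjd3-/- replicate 9), with 0 to 102 higher and 0 to 119 lower, 49 when Jmjd3-/- replicate 1 was dropped and 1 when wild-type replicate 4 was; a lone array is there assumed to vary like the other genotype. Of the 9 genes, 1 was past the threshold, which is a description since they were chosen on this contrast; it was 0 with quantile normalisation, with dim probes kept, with signal required on all arrays and with probes averaged, and 0 to 3 when an array was left out (Barx1, Dlx1 and Gbx2 without Jmjd3-/- replicate 9). The cause was not tested. The median of the arch regulators, 0.0014, was −0.016 with median scaling, −0.0056 with quantile normalisation, −0.017 with normexp, −0.13 when wild-type replicate 4 was left out, −0.26 when Jmjd3-/- replicate 9 was, and 0.12 when Jmjd3-/- replicate 1 was. For limb ectoderm genes the median of −0.16 became −0.51 when Jmjd3-/- replicate 9 was left out and 0.16 when replicate 1 was. The brain and eye median, −0.12, was 0.013 without a filter, and ranged from −0.65 (wild-type replicate 3 left out) to 0.027 (Jmjd3-/- replicate 1 left out). That of all genes, −0.012, was 0.013 without a filter and ranged from −0.030 to 0.016 when an array was left out. The genotypes share no sample number. No paired analysis was possible because the numbers 1 and 9 and the numbers 3 and 4 do not overlap. Dim probes limit Dlx1, Dlx6, Otx2 and En1; the dimmest probe marked well above background read 12.6 to 14.8 units on an array, and brighter spots were not always marked so, such as Dlx1 at 16.6 units. Without the gene of largest range, the summed level of the crest, heart and posterior lists kept its direction and that of the brain and eye list did not.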
